A study of Rattus norvegicus with 12 samples.

Results

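The 10 heat shock chaperone genes described here were picked by name from a table of 14692 rat liver genes. They are the cytosolic HSPH1, HSPA8, HSPA4, HSP90AA1, HSP90AB1, HSPB1, DNAJA1 and DNAJB1, and the mitochondrial HSPD1 and HSPE1. No measured value entered their choice, although earlier results of the same table were known. RNA sequencing had been performed on whole liver of male Sprague Dawley rats, 4 to 5 months old by the study's methods, at 0, 4, 12 and 24 h after partial hepatectomy (PH), in which most of the liver is cut away and the remnant regrows. Sham surgery had been done on the Control rats 24 h earlier. The other rats had a biliary fistula, a catheter that drains bile out of the body, and in 1 of their 2 groups sodium taurocholate, a bile acid, was infused into the duodenum from 12 h before PH. All 3 groups carried a duodenal catheter with saline. The sample titles name the fistula groups BF and BA, but the titles and the descriptions attach the infusion to opposite names, and so BF and BA below are names of columns whose treatment is uncertain. The study's own text uses BF for the fistula alone, as the titles do. CYP7A1, the rate-limiting enzyme of bile acid synthesis, is repressed by bile acids that return to the liver. It stood at 60, 4.59, 8.53 and 57.3 RPKM at 0, 4, 12 and 24 h in Control, at 387, 13.8, 136 and 334 RPKM in BF, and at 54.9, 1.81, 3.17 and 68.8 RPKM in BA, and so was highest in BF at all 4 times. No group was assigned from these values.

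Each of the 12 columns is the authors' average of 2 sequencing runs, on 1 rat and on pooled RNA of 3 rats, in RPKM (reads per kilobase of transcript, scaled by the size of the library). With 1 column per group and time there was no spread between rats, no difference below has a replicate check, and no p-value is given. Read depth per column is unknown. Ratios are on the log2(RPKM + 1) scale, on which differences of weakly expressed genes come out too small, and a gene is called higher or lower where this ratio is at least 1 in size, that is 2-fold. Folds of single genes are plain ratios of RPKM. The calls were read beside the share of all 8459 genes averaging 1 RPKM or more that passed the same fold. Of the 10 chaperones 9 were in this set. The liver label held, with ALB between 41049 and 303637 RPKM and TTR, CPS1 and ASGR1 above 399 RPKM in every column.

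A pair of columns stood apart. In BA at 4 h albumin took 30.9% of the summed RPKM, against 5.6% to 13.4% in the other 11 columns, and the sum itself was 982826 against 727435 to 785092. The 9 chaperones together had their lowest sum, 544 RPKM, in the same column, and the highest was 1127 RPKM in Control at 24 h. In BF at 12 h the pancreatic acinar list (6 of 7 genes found) summed to 126 RPKM, with CTRB1 at 84.7 and PRSS1 at 16.6 RPKM, while no other column passed 23.0 RPKM. Neutrophil markers (3 of 3 found) summed to 2.89 RPKM in Control at 0 h, to 22.1 and 21.9 RPKM in BF and BA at 0 h, and to between 26.6 and 62.2 RPKM at later times. Their part in the chaperone values was not tested. In whole liver, fewer cells of a type and less RNA per cell cannot be told apart.

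Heat shock proteins are chaperones that help proteins fold, refold or be degraded, and many of their genes are induced together by heat shock transcription factors that bind repeated GAA units, the heat shock element. In the cytosol HSP70 proteins work in a cycle with J-domain partners, which deliver substrates, and with HSP110 proteins, which exchange the nucleotide, and hand clients on to HSP90. In mitochondria HSPD1 (Hsp60) forms a folding chamber that HSPE1 (Hsp10) closes. In the regenerating liver hepatocytes leave quiescence and make new protein before they divide.

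The promoters are shown first, because the shared regulatory letters are what groups these genes in the textbook. RefSeq promoters of the GRCr8 assembly (250 bases before the start) were matched by symbol for 9 of the 10 genes, all but HSP90AA1. The searched letters were a dyad of GAA units, GAANNTTC or TTCNNGAA, and a triplet, the same with another unit in the opposite direction after 2 further bases, read on both strands. Every triplet holds 2 overlapping dyads. A dyad was present in 7 of 9 chaperone promoters, in 13.5% of all 33469 promoters and in 10.4% of the 6107 promoters of genes averaging 1 RPKM or more. A triplet was present in 4 of 9, against 0.663% of all promoters and 0.393% of those of expressed genes. A match of letters is a description and not a bound site. The stretches below run 5′ to 3′ on the gene's own strand, with the matching runs in capitals. The first set holds the triplets of cytosolic genes, 1 in HSPH1, 36 to 24 bases before its start (chr12:10427308-10427367, plus strand), and 2 in HSPA8 (chr8:50080277-50080336 and chr8:50080435-50080494, plus strand).
HSPH1: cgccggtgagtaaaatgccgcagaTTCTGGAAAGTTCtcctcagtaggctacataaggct
HSPA8 distal: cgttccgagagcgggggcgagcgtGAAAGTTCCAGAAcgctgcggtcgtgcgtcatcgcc
HSPA8 proximal: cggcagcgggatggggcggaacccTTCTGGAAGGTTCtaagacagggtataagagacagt

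The mitochondrial pair is shown because both genes hold the same element. HSPD1 and HSPE1 lie head to head and are read from opposite strands. A single run of 18 bases (chr9:64084262-64084279) lies 242 to 225 bases before the start of HSPD1 and 65 to 48 bases before that of HSPE1, and it holds 2 overlapping triplets. The stretches are chr9:64084257-64084286 on the minus strand and chr9:64084255-64084284 on the plus strand.
HSPD1: cggggccTTCCGGAAGGTTCTAGAAccgag
HSPE1: cgctcggTTCTAGAACCTTCCGGAAggccc

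Dyads without a triplet were found in HSPB1 (2 dyads in chr12:26432398-26432457, minus strand), DNAJA1 (chr5:60638196-60638255, plus strand) and DNAJB1 (chr19:41431142-41431201, minus strand). They are shown to complete the members with a match, and no link between the letters and the levels was tested. HSPA4 and HSP90AB1 had neither motif in this window, which says nothing about elements outside it.
HSPB1: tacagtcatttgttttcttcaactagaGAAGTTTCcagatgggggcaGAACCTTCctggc
DNAJA1: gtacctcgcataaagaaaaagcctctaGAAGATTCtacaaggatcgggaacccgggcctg
DNAJB1: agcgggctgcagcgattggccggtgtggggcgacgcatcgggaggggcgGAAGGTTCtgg

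**Figure D1:**
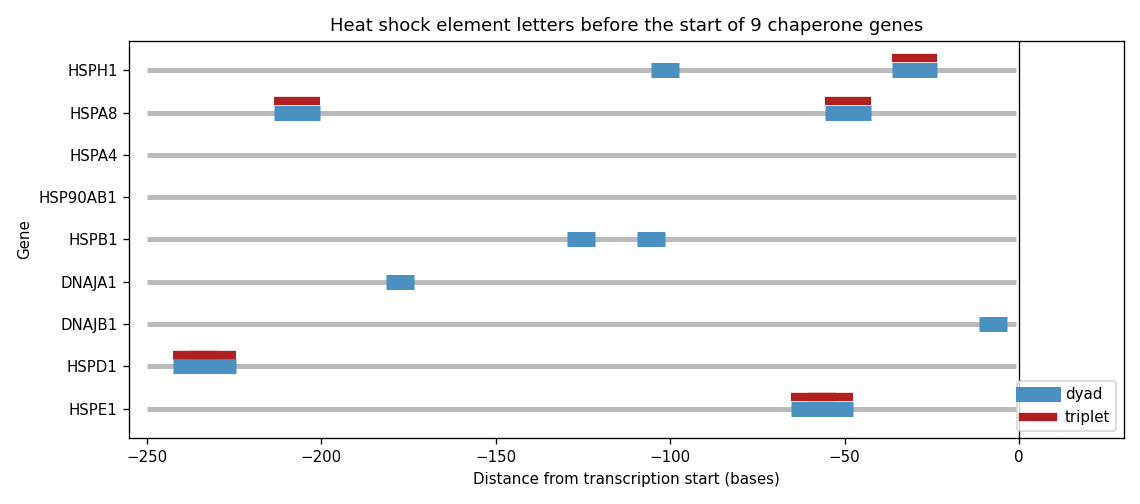
Position of heat shock element letters in the 250 bases before the transcription start of 9 chaperone genes, in bases from the start (x axis). Blue blocks are dyads and red blocks triplets. Triplets lie in HSPH1, HSPA8, HSPD1 and HSPE1, and HSPA4 and HSP90AB1 have neither.

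The level of RPKM, which is per length, ordered the chaperones in much the same way in all columns. HSP90AB1, HSPE1 and DNAJA1 held the first 3 places among the 9 in each of the 12 columns, with means of 205, 204 and 186 RPKM, which rank 375, 379 and 413 among all genes. HSPD1 followed at a mean of 56.6 RPKM, then HSPH1 at 44.9, HSPA4 at 37.0, HSP90AA1 at 27.9, DNAJB1 at 22.1 and HSPB1 at 18.5 RPKM. DNAJA1 was first at 0 h in all 3 groups, HSPE1 was first at 4 and 12 h in all 3, and HSP90AB1 was first at 24 h in all 3. Whether neighbours in this order differ beyond the spread between rats cannot be computed.

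HSPA8, the constitutive HSP70 of the cytosol, was listed at 0 in 9 columns and at 0.01 or 0.02 RPKM in the other 3. Other genes that nearly every cell uses were also listed near 0, with ACTG1 at no more than 0.14, GAPDH 0.54, PPIA 0.40, RPS18 0.75 and HMGB1 0.07 RPKM. No level is therefore read from HSPA8, and the cytosolic medians use the 7 other genes. RefSeq names 33 pseudogenes after HSPA8 and 81 after GAPDH, and reads of near-identical copies may have been handled apart. Other chaperones have such copies too, 23 for HSP90AB1, 20 for HSPD1, 16 for HSP90AA1, 4 for DNAJA1 and 1 for HSPE1, so their levels are uncertain. Among table genes with at least 10 named pseudogenes 16.5% of 85 stayed below 1 RPKM in every column, against 34.6% of 9793 genes with none. These sets also differed in level, with a median of the gene means of 22.3 RPKM against 3.11 RPKM. Because of this difference, the shares do not show how pseudogenes bear on a listed value. The part of pseudogenes in the HSPA8 values was not tested.

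The 2 mitochondrial chaperones were above their 0 h level at every later time in every group. HSPE1, the lid of the chaperonin, stood at 139, 228, 326 and 258 RPKM at 0, 4, 12 and 24 h in Control, at 97.7, 199, 186 and 245 RPKM in BF, and at 142, 182, 221 and 226 RPKM in BA. HSPD1, its folding chamber, stood at 43.4, 64.4, 76.2 and 80.5 RPKM in Control, at 32.3, 53.3, 48.4 and 74.1 RPKM in BF, and at 40.2, 46.0, 55.1 and 65.1 RPKM in BA. For both genes the 3 columns at 0 h lay below all 9 later columns. The highest HSPE1 value belonged to Control at 12 h and the highest HSPD1 value to Control at 24 h.

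Against 0 h, HSPE1 was called higher in Control at 12 h (2.35-fold, log2 ratio 1.23), in BF at 4 h (2.04-fold, 1.02) and in BF at 24 h (2.51-fold, 1.32). HSPD1 was called higher in BF at 24 h only (2.29-fold, log2 ratio 1.17), and neither gene was called in BA, where folds ran from 1.14 to 1.62. Both BF calls at 24 h were read against the lowest starting column of each gene, BF at 0 h. They dropped under 2-fold, to log2 ratios of 0.77 for HSPD1 and 0.91 for HSPE1, when columns were rescaled to a common median gene. Rescaling also brought ratios past the limit, HSPD1 in Control at 12 h to 1.01 on the scale of the median gene, and HSPE1 in BF at 12 h to 1.17 on a scale without the 10 most abundant genes.

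HSP90 is the chaperone of kinases and steroid receptors, with an inducible form, HSP90AA1, and a constitutive one, HSP90AB1. HSP90AA1 stood at 20.6, 22.0, 25.4 and 58.5 RPKM at 0, 4, 12 and 24 h in Control, at 11.6, 21.9, 20.6 and 47.8 RPKM in BF, and at 21.6, 25.4, 16.9 and 42.8 RPKM in BA. The 3 columns at 24 h lay above all 9 earlier ones. Against 0 h, HSP90AA1 at 24 h was 2.84-fold in Control and 4.12-fold in BF, both called, and 1.98-fold in BA with a log2 ratio of 0.96, just short of the call. On the scale without the 10 most abundant genes the BA ratio was 1.02, past it, and the BF ratio at 12 h came to 1.00 from 0.77. HSP90AB1 stood at 209, 162, 211 and 325 RPKM in Control, at 169, 161, 177 and 264 RPKM in BF, and at 218, 139, 145 and 284 RPKM in BA. Its highest value in each group was again at 24 h, with folds of 1.56, 1.56 and 1.302 over 0 h, none of them called.

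DNAJA1 and DNAJB1 are J-domain partners of HSP70. DNAJA1 stood at 269, 164, 140 and 242 RPKM at 0, 4, 12 and 24 h in Control, at 200.4, 141, 156 and 249 RPKM in BF, and at 222, 76.7, 124 and 251 RPKM in BA. DNAJB1 stood at 29.8, 19.9, 17.2 and 27.8 RPKM in Control, at 21.7, 19.9, 16.2 and 27.6 RPKM in BF, and at 27.6, 14.1, 16.6 and 27.4 RPKM in BA. Both genes were lower at 4 and 12 h than at 0 and 24 h in every group. For DNAJA1 all 6 columns of 4 and 12 h lay below all 6 of 0 and 24 h, on each of the 3 scales. For DNAJB1 they did so as deposited only, and on the scale without the 10 most abundant genes its lower 4 and 12 h values held within 2 of the 3 groups. The 24 h values were close to each other, 242 to 251 RPKM for DNAJA1 and 27.4 to 27.8 RPKM for DNAJB1, while those at 0 h ranged from 200.4 to 269 and from 21.7 to 29.8 RPKM. The only call was DNAJA1 in BA at 4 h, at 0.35-fold (log2 ratio -1.52), in the column where albumin took 30.9% of the RPKM.

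HSPB1 is the small heat shock protein Hsp27, which holds unfolded proteins without using ATP. It had the widest range of the 9 genes, 5.38-fold, at 17.3, 15.9, 13.9 and 35.7 RPKM at 0, 4, 12 and 24 h in Control, at 27.4, 9.85, 17.9 and 20.0 RPKM in BF, and at 23.4, 6.64, 12.6 and 21.6 RPKM in BA. The groups followed different orders, with the highest value at 24 h in Control and at 0 h in BF and BA. HSPB1 was called lower at 4 h in BF (0.36-fold, log2 ratio -1.39) and in BA (0.28-fold, -1.68), where Control was at 0.92-fold. It was called higher in Control at 24 h (2.07-fold, log2 ratio 1.01). That call was lost on both rescaled scales, at log2 ratios of 0.67 and 0.99.

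HSPH1 and HSPA4 belong to the HSP110 family, the nucleotide exchange factors of HSP70. HSPH1 stood at 55.1, 43.5, 52.2 and 52.2 RPKM at 0, 4, 12 and 24 h in Control, at 30.4, 56.4, 42.6 and 43.9 RPKM in BF, and at 50.1, 23.7, 35.3 and 53.7 RPKM in BA. At 4 h it was thus at its highest in BF and at its lowest in BA. It was called lower in BA at 4 h (0.47-fold, log2 ratio -1.05), and the ratio came to -0.79 and -0.91 on the rescaled scales. HSPA4 varied least of the 9 genes, 1.62-fold over the 12 columns, at 38.3, 38.5, 38.1 and 47.6 RPKM in Control, at 29.3, 39.9, 33.0 and 42.2 RPKM in BF, and at 35.6, 30.7, 30.6 and 40.01 RPKM in BA. It was never called.

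**Figure D2:**
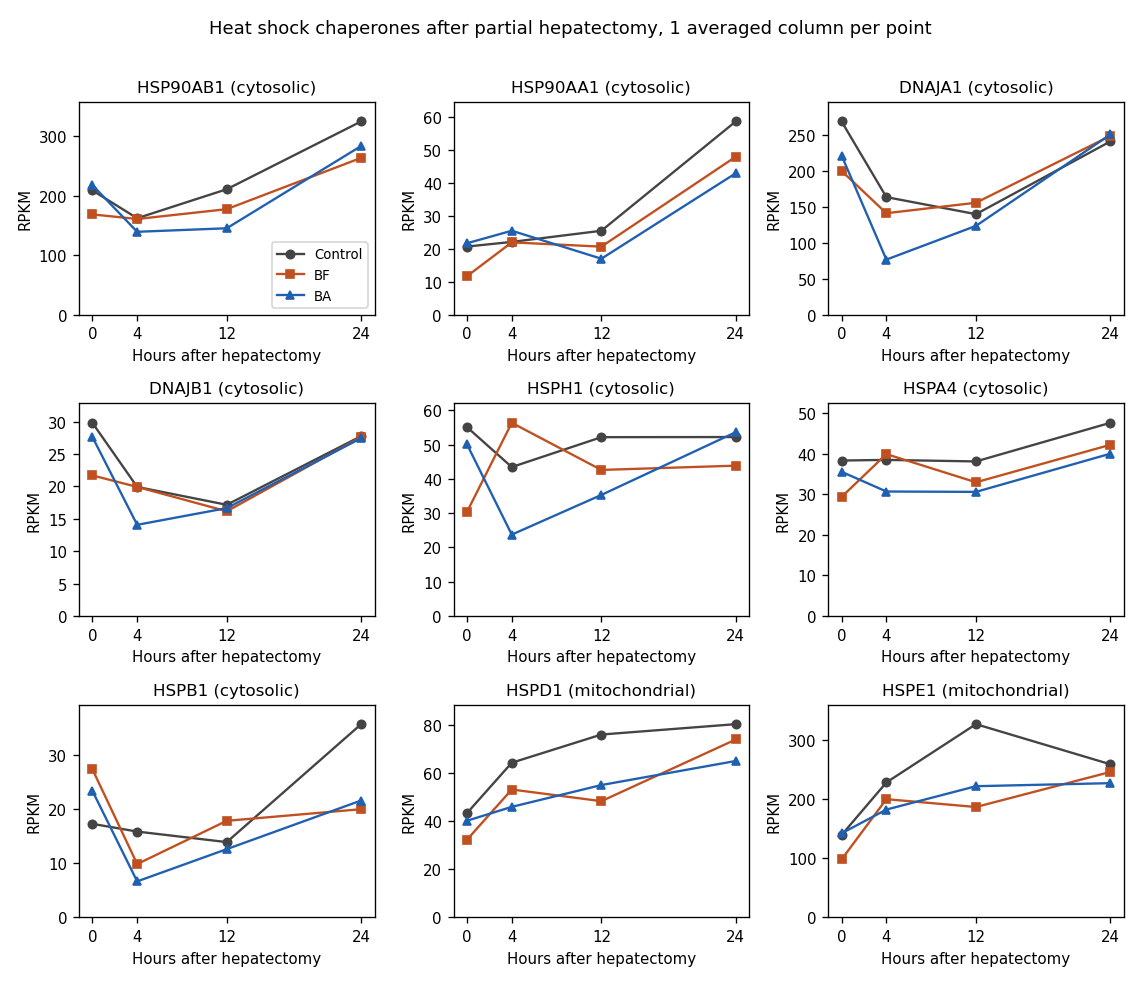
RPKM (y axis, from 0) of the 9 measured chaperones against hours after hepatectomy (x axis) in Control (grey circles), BF (orange squares) and BA (blue triangles). Each point is 1 averaged column without an error. HSPD1 and HSPE1 lie lowest at 0 h in all 3 groups, DNAJA1 and DNAJB1 dip at 4 and 12 h, and HSP90AA1 is highest at 24 h.

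The calls of the 9 chaperones were few, and their number is read beside that of all genes. In Control 0 were called at 4 h (all genes 4.01% higher and 5.19% lower), 1 higher at 12 h (3.96% higher, 9.94% lower) and 2 higher at 24 h (8.29% higher, 3.03% lower). In BF 1 was called higher and 1 lower at 4 h (5.13% higher, 6.92% lower), 0 at 12 h (2.46% and 5.15%) and 3 higher at 24 h (9.27% higher, 1.88% lower). In BA 3 were called lower and 0 higher at 4 h (4.61% higher, 13.2% lower), and 0 at 12 h (1.29% and 5.77%) or 24 h (3.83% and 1.41%). With 9 genes, 1 gene is a larger share than most of these backgrounds, so a single call says little about the group. No chaperone was called in the same direction in all 3 groups at any time. Among all genes 1.71% were called higher and 2.73% lower in all 3 groups at 4 h, 0.414% and 2.7% at 12 h, and 2.54% and 0.662% at 24 h.

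Direction without a size limit was shared by more of them. At 4 h HSP90AA1, HSPD1 and HSPE1 were higher in all 3 groups, as 19.7% of all genes were, and HSP90AB1, HSPB1, DNAJA1 and DNAJB1 were lower in all 3, as 46.7% were. At 12 h HSPD1 and HSPE1 were higher in all 3 (22.2% of all genes) and HSPB1, DNAJA1 and DNAJB1 lower (42.3%). At 24 h HSPA4, HSP90AA1, HSP90AB1, HSPD1 and HSPE1 were higher in all 3 (54.7%) and none was lower (15.6%). The counts of lower chaperones at 4 and 12 h and of higher ones at 12 and 24 h are near the share of all genes. At 12 h the 2 higher chaperones are HSPD1 and HSPE1 themselves. Rescaling to the median gene took HSPB1 off the lower list and put HSPA4 on the higher list at 4 h. At 24 h it took HSPA4 off the higher list and made DNAJA1 and DNAJB1 lower in all 3 groups. On that scale 28.5% of all genes were higher and 39.7% lower in all 3 groups at 4 h, and 24.9% and 40.2% at 24 h. Without the 10 most abundant genes, the lower list at 4 h kept HSPB1 and DNAJA1 (39.9% of all genes). HSPA4 joined the higher list at 12 h on this last scale (38.2%). HSPD1 and HSPE1 stayed on the higher list at all 3 times on each of the 3 scales, as did HSP90AA1 at 4 and 24 h and HSP90AB1 at 24 h.

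The cytosolic and the mitochondrial chaperones, the latter only 2 genes, were then set side by side. The median log2 ratio of the 7 cytosolic genes against 0 h was -0.34, -0.08 and 0.31 at 4, 12 and 24 h in Control, -0.07, 0.07 and 0.51 in BF, and -0.93, -0.58 and 0.17 in BA. That of the 2 mitochondrial genes was 0.63, 1.01 and 0.88 in Control, 0.86, 0.75 and 1.25 in BF, and 0.27, 0.54 and 0.68 in BA. The median of all 8459 genes was -0.19, -0.16 and 0.21 in Control, -0.07, -0.05 and 0.28 in BF, and -0.32, -0.13 and 0.15 in BA.

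The mitochondrial median lay above the cytosolic one in 9 of 9 comparisons, by 0.51 (BA at 24 h) to 1.20 (BA at 4 h) on the log2 scale. The comparisons of a group share its 0 h column and so are not independent. Leaving out a column only drops the comparisons that use it, so the order in the others cannot change and this is no check of it. In the 8 comparisons without the BA column at 4 h the difference ran from 0.51 to 1.12. Single cytosolic genes could exceed the mitochondrial pair. HSP90AA1 had a larger ratio than both HSPD1 and HSPE1 at 24 h in all 3 groups, and so did HSPB1 at 24 h in Control. HSP90AA1 passed 1 of the 2 in BF at 4 and 12 h and in BA at 4 h, and HSPH1 passed 1 of them in BF at 4 h.

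**Figure D3:**
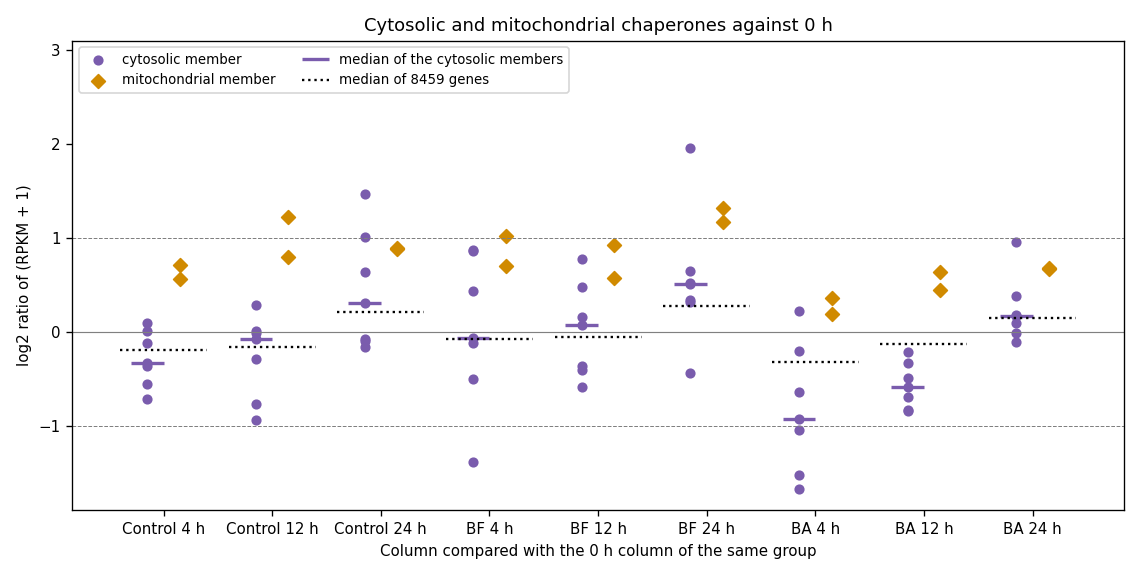
Log2 ratio of (RPKM + 1) against the 0 h column of the same group (y axis) for 7 cytosolic chaperones (purple circles, bar at their median) and 2 mitochondrial ones (orange diamonds), in 9 comparisons (x axis). Dotted lines mark the median of 8459 genes and dashed lines the 2-fold limits. The mitochondrial diamonds lie above the cytosolic median in each of the 9 comparisons.

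The chaperones were also compared between groups at the same time after PH. The comparisons at a time share columns and are set side by side only. At 0 h, before the liver had been cut, 8 of the 9 genes were lower in BF than in Control, with a cytosolic median log2 ratio of -0.43 and a mitochondrial one of -0.46, where the median of all genes was -0.18. HSPB1 alone was higher, 1.59-fold. HSPH1 was at 0.55-fold and HSP90AA1 at 0.56-fold of Control, but none passed 2-fold (3.89% of all genes did, in either direction). BA against Control at 0 h had medians of -0.11 and -0.04, with 0 called (4.02%). BF against BA at 0 h had medians of -0.34 and -0.42, with 0 called (1.82%).

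At 4 h, as deposited, BA held the lowest value of the 3 columns for 8 of the 9 chaperones, and HSP90AA1 was highest there, at 1.15-fold of Control. HSPB1 at 0.42-fold and DNAJA1 at 0.47-fold of Control were called lower (7.28% of all genes were called), and HSPH1 was 2.38-fold higher in BF than in BA (4.72%). BF against Control had 0 calls (4.35%). On the scale of the median gene, HSPB1 and DNAJA1 were under 2-fold, at log2 ratios of -0.93 and -0.84, and DNAJA1 was at -0.96 without the 10 most abundant genes. The share of albumin in that column moves with these values, and its part in them was tested only by these rescalings.

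At 12 h the mitochondrial genes were lower in BF and BA than in Control, with median log2 ratios of -0.72 and -0.51, and HSPE1 stood at 0.57-fold and 0.68-fold. The cytosolic medians were -0.20 and -0.31 and those of all genes -0.07 and -0.06. None was called, where 3.52% and 1.71% of all genes were, and 0 were called in BF against BA (1.92%). BF at 12 h is also the column with the acinar markers. At 24 h the columns had cytosolic medians of -0.25 and -0.20 and mitochondrial ones of -0.10 and -0.25 for BF and BA against Control. None was called there (2.08% and 2.05% of all genes) or in BF against BA (1.86%). HSPB1 was at 0.56-fold of Control in BF and 0.60-fold in BA at 24 h.

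Ratios within related pairs do not depend on the scale of a column. HSP90AA1 was the minor form of HSP90, at 0.069 to 0.182 of the HSP90AB1 level. Its share was lowest at 0 h in every group (0.099 in Control, 0.069 in BF and 0.099 in BA) and was 0.180, 0.181 and 0.151 at 24 h. BA at 4 h had 0.182. HSPD1 to HSPE1 was the narrowest ratio, 0.234 to 0.331, and was lower at 4 and 12 h than at 0 and 24 h within each group. HSPH1 to HSPA4 ran from 0.774 in BA at 4 h to 1.44 in Control at 0 h, and 0.774 was the only value below 1. DNAJB1 to DNAJA1 ran from 0.104 to 0.183 with its highest value in BA at 4 h.

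**Figure D4:**
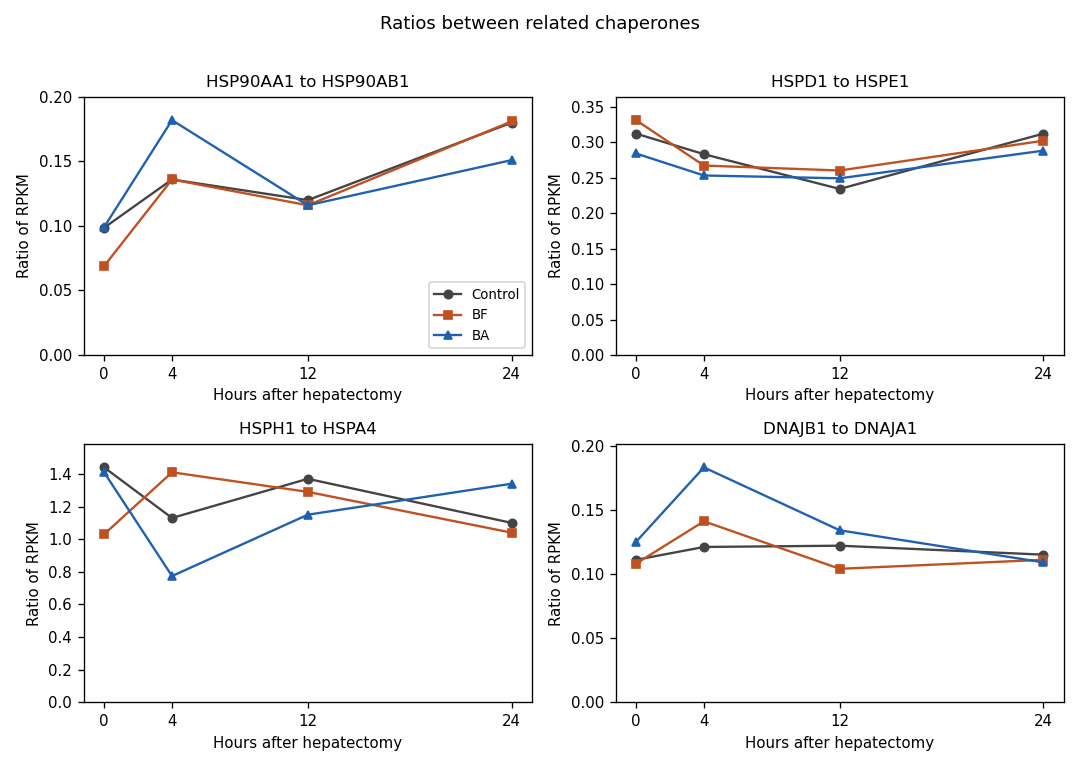
Ratio of RPKM (y axis, from 0) within 4 pairs of related chaperones against hours after hepatectomy (x axis) in Control (grey circles), BF (orange squares) and BA (blue triangles), 1 averaged column per point. HSP90AA1 to HSP90AB1 is lowest at 0 h in each group, and HSPH1 to HSPA4 is below 1 only in BA at 4 h.

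Over the 12 columns the log2 levels of partners went together. Pearson's r was 0.95 for HSPD1 with HSPE1, 0.94 for DNAJA1 with DNAJB1, 0.80 for HSP90AA1 with HSP90AB1 and 0.76 for HSPH1 with HSPA4. It was -0.15 for DNAJA1 with HSPE1, the most abundant J-domain and mitochondrial members. On the scale of the median gene these values were 0.97, 0.85, 0.57, 0.64 and -0.64. High values were not particular to partners. As deposited, r was 0.83 for HSPB1 with DNAJA1 and 0.81 for HSPA4 with HSP90AA1, and on the scale of the median gene 0.73 and 0.11. The points share columns and scale, 4 columns of a group share a treatment, and the values are given as a description.

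The genes most like the mean profile of the 7 cytosolic chaperones were PDS5A (r = 0.98), PPWD1 (0.97), ZNF787 (0.96), TAF6 (0.96) and PSMD1 (0.96), over 12 columns. The chaperones themselves had 0.71 (HSP90AA1) to 0.95 (HSP90AB1) with a profile that they form. The genes most like the mean of HSPD1 and HSPE1 were ITPA (0.97), SLC25A5 (0.96), MRTO4 (0.95), THG1L (0.95) and SLC25A3 (0.95). SLC25A3, the phosphate carrier of the mitochondrial inner membrane, stood at 188, 228, 302 and 332 RPKM in Control at the 4 times. HSP90AA1 had 0.72 with the mitochondrial profile and the other 6 cytosolic genes -0.04 to 0.66. All these r values are from the columns as deposited and were not recomputed on the rescaled columns. The level of the median gene also differed between columns, from 8.68 RPKM in BA at 4 h to 14.25 RPKM in Control at 24 h. Its part in the likeness was not tested.

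Other genes of the chaperone network were counted from lists of 6 kinds. Of 27 other HSP70, small heat shock and J-domain genes 22 were found and 15 averaged 1 RPKM or more. Their median log2 ratios against 0 h were 0.29, -0.05 and 0.47 at 4, 12 and 24 h in Control, 0.59, 0.17 and 0.66 in BF, and 0.02, -0.21 and 0.25 in BA. HSPA14, a ribosome-bound HSP70 relative, was the only one called in the same direction in all 3 groups. It stood at 14.4 RPKM at 0 h and 51.8 at 4 h in Control, at 8.62 and 40.2 RPKM in BF, and at 18.8 and 60.1 RPKM in BA. DNAJC9, a J-domain protein that handles histones, was at 47.5, 33.7 and 26.7 RPKM at 24 h against 10.3, 8.38 and 14.7 RPKM at 0 h in Control, BF and BA. HSPB8, a small heat shock protein, had its highest value in BF at 4 h, 155 RPKM against 69.6 RPKM at 0 h. Against 0 h, 0 to 2 of the 15 genes were called higher per comparison (1.29% to 9.27% of all genes), and DNAJC9 in BA at 4 h was the only one called lower (13.2%).

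Of 25 co-chaperones and regulators 22 were found, all averaging 1 RPKM or more. Their medians were -0.15, -0.02 and 0.36 in Control, 0.25, 0.19 and 0.53 in BF, and -0.35, -0.17 and 0.21 in BA, at 4, 12 and 24 h. FKBP5, an HSP90 co-chaperone of steroid receptors, was called higher at 4 h in all 3 groups, from 10.7 to 82.1 RPKM in Control, from 11.3 to 27.9 RPKM in BF and from 14.9 to 42.8 RPKM in BA. STIP1, which links HSP70 to HSP90, was at 0.38 on the log2 scale in BF at 4 h and at -0.69 and -1.05 in Control and BA. FKBP8, an FK506-binding protein of the mitochondrial outer membrane, was lower than at 0 h in all 9 comparisons, with log2 ratios from -0.97 to -0.30 and no call. Against 0 h, 0 to 2 of the 22 were called higher per comparison (1.29% to 9.27% of all genes) and 0 or 1 lower (1.41% to 13.2%).

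The list of heat shock factors held HSF1, HSF2, HSF4 and HSBP1, and 3 of the 4 were found. HSF1, the main heat shock factor, was not analysed here. HSF2 stood at 18.3, 8.59, 7.0 and 17.4 RPKM at 0, 4, 12 and 24 h in Control, at 14.1, 8.22, 8.80 and 13.7 RPKM in BF, and at 14.3, 5.54, 8.68 and 13.6 RPKM in BA. It was called lower in Control at 4 and 12 h (5.19% and 9.94% of all genes) and in BA at 4 h (13.2%). On the scale of the median gene both 4 h calls were lost, at log2 ratios of -0.89 in Control and -0.99 in BA. Control at 4 h was also under 2-fold without the 10 most abundant genes, at -0.98. Like DNAJA1 and DNAJB1, HSF2 was lower at 4 and 12 h than at 0 and 24 h in each group. HSF4 was at most 2.25 RPKM. HSBP1, a protein that binds heat shock factors, was at 55.1 to 107 RPKM and lower at 4 and 12 h than at 0 h in all 3 groups, except that BA at 12 h was at 0.04 and 0.10 on the rescaled log2 scales.

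The 8 subunits of the CCT ring, the cytosolic chaperonin that folds actin and tubulin, were all found. Their medians were 0.17, 0.43 and 0.77 in Control, 0.61, 0.53 and 1.12 in BF, and 0.02, 0.01 and 0.56 in BA. All 8 were higher than at 0 h in each group at 24 h, as 54.7% of all genes were. In BF at 24 h 6 of 8 were called, against 9.27% of all genes, and 6 of 8 also without the 10 most abundant genes. On the scale of the median gene all 8 were still higher in each group at 24 h (24.9% of all genes). On that scale, however, 0 of 8 were called at 24 h. CCT2 stood at 80.7 and 159 RPKM at 0 and 24 h in Control, at 58.4 and 133 RPKM in BF, and at 76.4 and 119.5 RPKM in BA. All 8 were lower in BF than in Control at 0 h, with a median of -0.56. CCT5 and CCT6A were the other subunits with the largest ratios, at 1.22 and 1.31 in BF at 24 h.

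Of 15 other mitochondrial chaperones and proteases 14 were found, all averaging 1 RPKM or more. Their medians were -0.12, -0.12 and 0.15 in Control, -0.02, -0.12 and 0.27 in BF, and -0.07, 0.03 and 0.34 in BA. The distance from the median of all genes lay between -0.07 and 0.24 in the 9 comparisons. Only SPG7, a protease subunit of the inner membrane, was called, in BF at 24 h (7.27 and 15.8 RPKM, where 9.27% of all genes were). HSPA9, the mitochondrial HSP70, was higher than at 0 h in all 9 comparisons, by 0.135 to 0.59 on the log2 scale, but was at -0.21 in Control and -0.05 in BF at 24 h on the scale of the median gene. TRAP1, the mitochondrial HSP90, was lower than at 0 h in all 3 groups at 4 and 12 h and higher at 24 h, where BF was at -0.29 on the scale of the median gene. HSPD1 and HSPE1 had larger log2 ratios than this list's median in all 9 comparisons. The wider lists did not share the order of the members. In 7 of 9 comparisons these 14 mitochondrial genes had a lower median than the 15 other HSP70, small heat shock and J-domain genes.

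The 12 chaperones of the endoplasmic reticulum were all found, and 11 averaged 1 RPKM or more. Their medians were -0.34, 0.80 and 0.49 in Control, 0.04, 0.50 and -0.12 in BF, and -0.26, 0.40 and -0.26 in BA, so that 12 h was the highest time in each group. HYOU1, the HSP110 relative of this compartment, stood at 80.6, 52.9, 212 and 81.2 RPKM in Control, at 78.8, 105, 202 and 72.6 RPKM in BF, and at 102, 84.8, 169 and 72.0 RPKM in BA. At 12 h 4 of 11 were called higher in Control (3.96% of all genes), 2 in BF (2.46%) and 0 in BA (1.29%), DNAJB11 among them in Control and BF and SDF2L1 in Control, with log2 ratios of 1.08, 1.09 and 1.09. The cytosolic chaperones had no such maximum at 12 h.

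**Figure D5:**
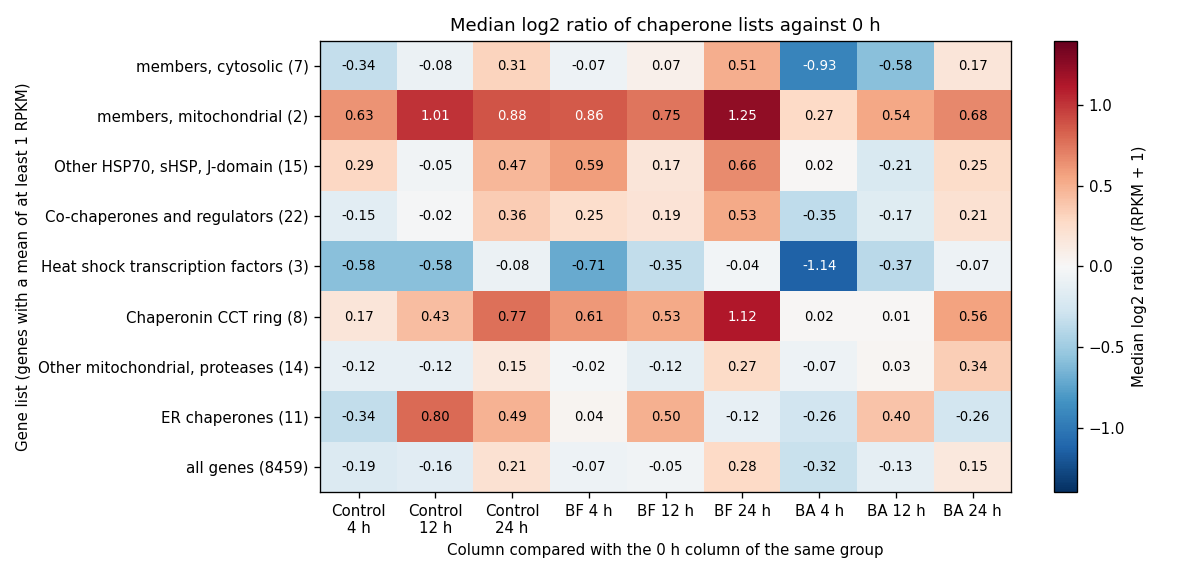
Median log2 ratio of (RPKM + 1) against the 0 h column of the same group (colour and printed value) for the cytosolic and mitochondrial chaperones, 6 wider lists and all genes (rows, number of genes in brackets) in 9 comparisons (columns). HSPD1 with HSPE1 and the CCT ring have positive medians in all 9 comparisons, and endoplasmic reticulum chaperones are highest at 12 h in each group.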

How the data were processed

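Poly(A) RNA of whole liver had been sequenced with 2 runs per group and time, 1 on a single rat and 1 on pooled RNA of 3 rats. The submitters' processing notes name CASAVA, Bowtie 0.12.2 and the builds rn4 and mm8, with no roles. The authors deposited RPKM values averaged over the runs, in 1 table with 12 columns, so no read counts or depths were at hand. Groups follow the sample titles. The way RPKM divides by the total lets a few abundant genes lower the rest, and the averaging hides the spread between rats.

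Of 14692 genes, 1 without a value was left out, 12388 were above 0, and 8459 averaging 1 RPKM or more were used for background shares. Ratios were log2 after adding 1 RPKM, called at 2-fold, computed with Python 3.11.15, numpy 2.4.6 and pandas 2.3.3, plotted with matplotlib 3.10.9, and tested on simulated data. No significance test was run, since with 1 column per group and time a comparison has no spread between rats. Alternatives were a pseudocount of 0.1 RPKM, other filters, 2 rescalings of columns, and HSPA8 or single columns included or left out. The chaperones and the 6 wider lists were chosen with earlier results of these data known. Named from each list were the genes called the same way in all 3 groups at a time and the 3 with the largest mean absolute ratio. The 5 genes most like each mean profile, HSF2, and cell type markers were also named, and GAPDH, ACTG1, PPIA, RPS18 and HMGB1 were chosen after their values were seen. Symbols, pseudogenes and promoters came from RefSeq (GRCr8). Of the marker lists not described in the report, cholangiocyte genes summed to 4.82 to 13.4 RPKM per column, macrophage and Kupffer cell genes to 125 to 223, endothelial genes to 31.0 to 55.1, stellate genes to 7.60 to 18.9, lymphocyte genes to 0.15 to 1.97 and erythroid genes to 101 to 288 RPKM.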

Additional observations from a re-analysis of the deposited data

Results flagged for a closer look

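Values of 1 gene at 1 time were singled out where 2 groups lay on opposite sides of their own 0 h column. With 1 column per group and time none of these differences between groups was tested. There were 10 such cases among 27 combinations of gene and time, and the cytosolic median at 12 h made 11. Among all genes 19.7% were higher and 46.7% lower in all 3 groups at 4 h, 22.2% and 42.3% at 12 h, and 54.7% and 15.6% at 24 h. The remaining genes had no common direction either, so opposite signs were not particular to chaperones. In 7 of the 11 cases, at 4 or 12 h, BF lay above and BA below 0 h. For HSPH1 the log2 ratio of BF was 1.92 above that of BA at 4 h (0.87 against -1.05) and 0.97 above it at 12 h (0.48 against -0.49). At 12 h the gap between BF and BA was 1.11 for HSP90AA1 (0.77 against -0.33) and 0.66 for HSP90AB1 (0.07 against -0.58), and the cytosolic median, which is HSP90AB1 itself in both groups, had the same 0.66. HSPA4 had smaller gaps of 0.64 at 4 h and 0.37 at 12 h.

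At 24 h the pair was BF and Control. HSPB1 was 1.44 higher in Control (1.01 against -0.44), while HSPH1, DNAJA1 and DNAJB1 were higher in BF by 0.59, 0.47 and 0.43. Of the 11 cases 8 kept opposite signs when columns were rescaled to the median gene, and HSPA4 at 4 h and DNAJA1 and DNAJB1 at 24 h did not. The BF column at 0 h was the lowest of the 3 starting columns for 8 of the 9 chaperones and enters each of the 11 gaps, and the BA column at 4 h is the one with 30.9% albumin.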

How the results depend on the processing

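The pseudocount of 0.1 RPKM left the sign and the side of the 2-fold limit of all 63 medians and differences and all 189 single ratios as reported. The sign of a single ratio does not depend on the pseudocount, so only its side of the limit was open to change. Rescaling to the median gene left the side of the limit for 62 of 63 medians and differences and 182 of 189 single ratios, and rescaling without the 10 most abundant genes for 63 and 183. Under rescaling, signs were less stable than the side of the limit. On the scale of the median gene 6 of 63 and 21 of 189 changed sign, none of them larger than 0.34 as deposited, and without the 10 most abundant genes 3 and 13 did. The cytosolic median of Control went from -0.08 to 0.13 at 12 h and from 0.31 to -0.03 at 24 h, that of BA at 24 h from 0.17 to -0.08, and that of BF against Control at 4 h from -0.009 to 0.09. The mitochondrial median of BF against Control at 24 h went from -0.10 to 0.05 and that of BA against Control at 0 h from -0.04 to 0.06. Without the 10 most abundant genes the cytosolic medians of Control at 12 h, BF at 4 h and BF against Control at 4 h were 0.09, 0.06 and 0.06. The mitochondrial minus cytosolic differences, counted among the 63, kept their sign on both scales. A rescaling multiplies a whole column by the same factor, which nearly cancels in these differences, so this is no check of them. The exception among medians was the mitochondrial one of BF at 24 h, 1.25 as deposited and 0.84 on the scale of the median gene, under 2-fold. No value past the 2-fold limit changed sign. With HSPA8 at its listed values all 21 cytosolic results kept sign and side. The log2 ratios of HSPA8 are near 0 there and can only draw a median toward 0, so this is no check. The 48 pair ratios moved little with 1 RPKM added. Background shares per comparison ran from 1.71% to 17.8%, from 1.88% to 17.6% above a mean of 10 RPKM and from 1.23% to 12.4% with no filter. HSPA8 and the columns left out were chosen after seeing the data. The cause of these shifts was not tested. No paired analysis was possible because all columns carry 1 replicate number, and blocks of group or time were not fitted. What limits precision is the single averaged column and the unknown depth.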
